A study of Rattus norvegicus with 36 samples.

Results

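Thyroid transcripts were compared between 4 rats given 1300 kBq of 131I intravenously and 4 control rats given 0 kBq, by the activity that the sample labels state. These 8 arrays were taken from 36 arrays in all, with 4 rats at each of the other activities, and every rat had its own array. The animals were adult male Sprague Dawley rats, killed 24 h after the injection. The thyroid dose assigned to 1300 kBq was 0.84 Gy, an estimate that was not recomputed here. The control rats were mock-treated after the group with the highest activity had been injected, and the groups were injected in turn, so that activity and place in the injection order cannot be told apart. RNA came from the whole excised tissue of each rat, and fewer cells of a type and less RNA per cell cannot be told apart in such samples.

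The thyroid follicle is a single layer of epithelial cells around a store of thyroglobulin. Its cells take up iodide through the sodium iodide symporter, and the uptake of radioiodine by the same route exposes the gland to beta particles from within. Ionizing radiation breaks DNA, the kinase ATM signals the breaks, and the transcription factor p53 is stabilized. p53 then turns on genes that stop the cell cycle (*Cdkn1a*, an inhibitor of cyclin-dependent kinases), that start or aid cell death (*Aen*, a nuclease, and *Bbc3*), and that switch p53 off again (*Mdm2*, its ubiquitin ligase). The question of the comparison is which transcripts of the gland differ a day after this exposure.

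The values are log2 normalized intensities of a probe, on which a difference of 1 is a factor of 2, and levels of different probes are not compared. Values of the 4 rats are given in the order of the rat numbers 1 to 4 throughout. The 8 arrays had 62.6 to 76.8% of their probes well above background by the scanner software's call, and 0 saturated spots. The 75th percentile of the processed intensities ran from 1797 to 4040. Where a probe was not well above background on part of a group's arrays, its difference is one of measured intensities that include background, and the number of arrays is given for the genes most affected.

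RNA of the thyroid follicle was low in 3 of the 8 samples. The mean level over 22 measured follicular cell markers was 7.06, 7.99, 12.58 and 12.81 in the 1300 kBq rats and 13.06, 11.97, 8.44 and 13.47 in the controls. Rats 1 and 2 of the irradiated group and control rat 3 therefore lay apart from the other 5. *Tg*, the thyroglobulin gene, had levels of 8.91, 13.43, 18.93 and 18.79 in the irradiated rats and 18.64, 18.61, 14.48 and 19.02 in the controls. *Pax8*, a transcription factor that defines the follicular cell, was at 4.03, 5.75, 14.32 and 14.48 in the irradiated rats and 14.49, 13.35, 6.55 and 15.96 in the controls. The same 3 samples were lowest for *Slc5a5*, the sodium iodide symporter (3.34, 4.51, 13.67 and 13.86 against 14.03, 12.24, 4.91 and 15.21). Such samples were not confined to these groups, since 18 of the 36 arrays had a follicular mean between 7.06 and 10.4, and the other 18 between 11.97 and 13.47. *Hhex*, a transcription factor of thyroid development that was named here after its values were seen, followed the same 3 samples (8.73, 9.33, 12.62 and 13.12 against 15.73, 13.41, 9.24 and 15.42), with a difference of -2.50 (SE 1.90) and an adjusted p of 0.966. For many of the lists and genes below, the value without some or all of these samples is given.

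Markers of neighbouring tissues also differed from rat to rat. Lymphoid cell markers had a mean of 12.03 in control rat 2, and of 5.71 to 6.69 in the 1300 kBq rats. Control rat 2 had 16.47 for *Cd3g*, a subunit of the T cell receptor complex, and the other 7 rats lay between 5.98 and 8.86. Squamous epithelium markers averaged 13.29 in control rat 3 and 12 in irradiated rat 3, and at most 7.97 elsewhere. Cartilage markers were highest in control rat 3 (11.61) and irradiated rat 2 (10.32). Parathyroid hormone (*Pth*) was at 2.93, 6.41, 18.51 and 17.98 in the irradiated rats and 5.24, 18.14, 2.95 and 15.71 in the controls, high in 4 samples and low in the other 4. Fast muscle markers were high in all 8 (17.16 to 18.33), and *Myh7*, a myosin of slow muscle, was at 8.40 in irradiated rat 1 and at least 12.60 elsewhere.

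**Figure D1:**
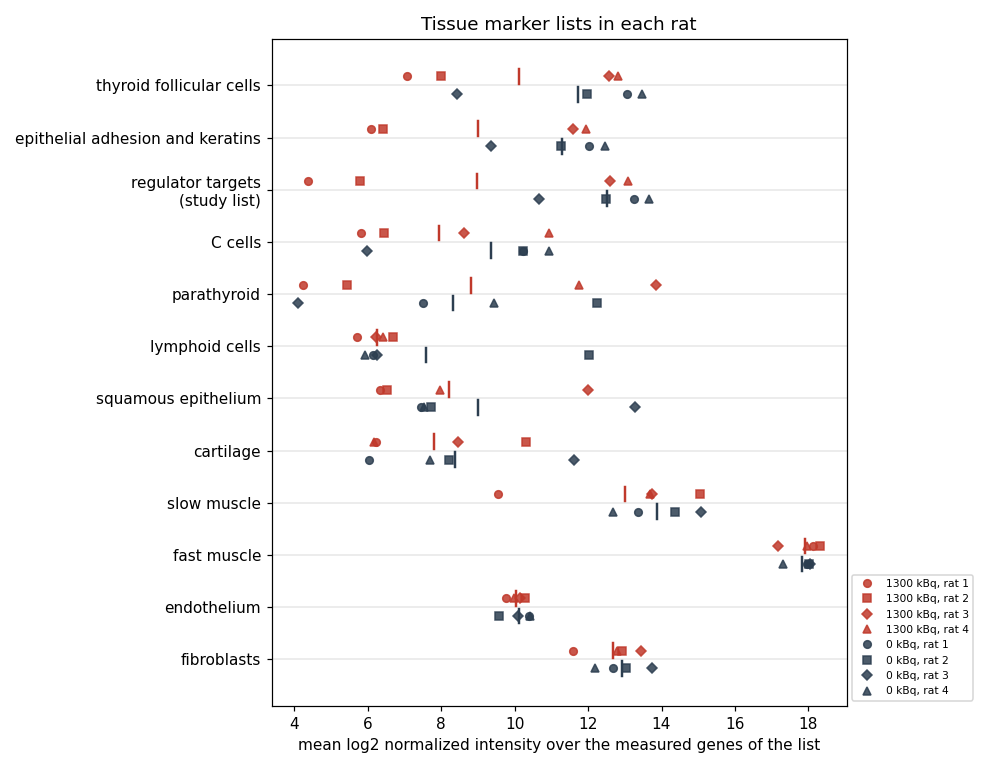
Mean log2 normalized intensity of 12 gene lists (x axis) in each rat, with the 1300 kBq rats in red above and the 0 kBq rats in dark blue below, 1 symbol per rat number and a vertical bar at the mean of the 4 rats. Rats 1 and 2 of the 1300 kBq group and rat 3 of the controls lie at the left for follicular cells, at 7.06, 7.99 and 8.44, and control rat 2 lies at the right for lymphoid cells, at 12.03.

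No transcript passed the limits that the study used, when they were applied to a limma fit. The study made its own calls with other software, which was not run here, so the counts below are those of limma alone. In a limma fit with a mean for each group over all 36 arrays, 0 of 30367 probes (0%) were regulated, that is, differed by a factor of 1.5 or more at a Benjamini-Hochberg adjusted p under 0.01, and 0 reached an adjusted p under 0.05. The smallest adjusted p was 0.496. Before adjustment, 919 probes (3.03%) had a p under 0.05. A less strict description, used below to sort genes and not to call them, took the same factor with an unadjusted p under 0.01. It held for 163 probes (0.537%), of which 123 were higher (0.405%) and 40 lower (0.132%) at 1300 kBq. Without irradiated rats 1 and 2 these counts were 93 higher and 12 lower, without control rat 3 as well 85 and 23, and without control rat 2 in addition 58 and 66. In each of these smaller comparisons 1 probe was regulated, and each time it was that of *Gfi1b*. The array weights of limma also gave 1 regulated probe, again *Gfi1b*, and so did leaving out control rat 1, then a probe without a gene symbol (A_64_P034342).

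*Gfi1b*, a transcriptional repressor of red cell and platelet precursors, had levels of 3.70, 3.91, 5.22 and 6.36 in the irradiated rats and 3.51, 3.18, 3.81 and 2.95 in the controls. It was well above background only in irradiated rats 3 and 4, and in no control, so that over those 2 rats it was at least 2.48-fold higher (adjusted p 0.000341 without irradiated rats 1 and 2). Over all 4 irradiated rats the bound was 1.25-fold and the adjusted p 0.966. The fits without irradiated rats 1 and 2 rest on 2 irradiated rats and were chosen after seeing the data, while the array weights kept all 4. *Gfi1b* was picked from all probes because these fits called it, so the adjusted p is no independent support. Of 8 measured red cell markers 5 were higher and 3 lower, with a median of 0.11. *Slc4a1*, the anion exchanger of the red cell membrane, was at 6.36, 7.70, 9.74 and 10.23 in the irradiated rats and 7.48, 6.89, 7.31 and 7.84 in the controls, highest in rats 3 and 4. Its difference was 1.13 (SE 0.66), and 2.58 without irradiated rats 1 and 2 and control rat 3. *Ahsp*, a chaperone of alpha globin, differed by -0.60 (SE 0.72), and *Alas2*, the first enzyme of heme synthesis in red cells, was highest in irradiated rat 2 (9.96, 11.72, 10.16 and 9.43 against 9.41, 9.01, 10.93 and 10.27). The unnamed probe was at 3.095, 2.82, 2.88 and 2.74 in the irradiated rats, below background in each, and at 2.84, 5.20, 6.60 and 6.51 in the controls. Without control rat 1 it was at least 3.12-fold lower at 1300 kBq.

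**Figure D2:**
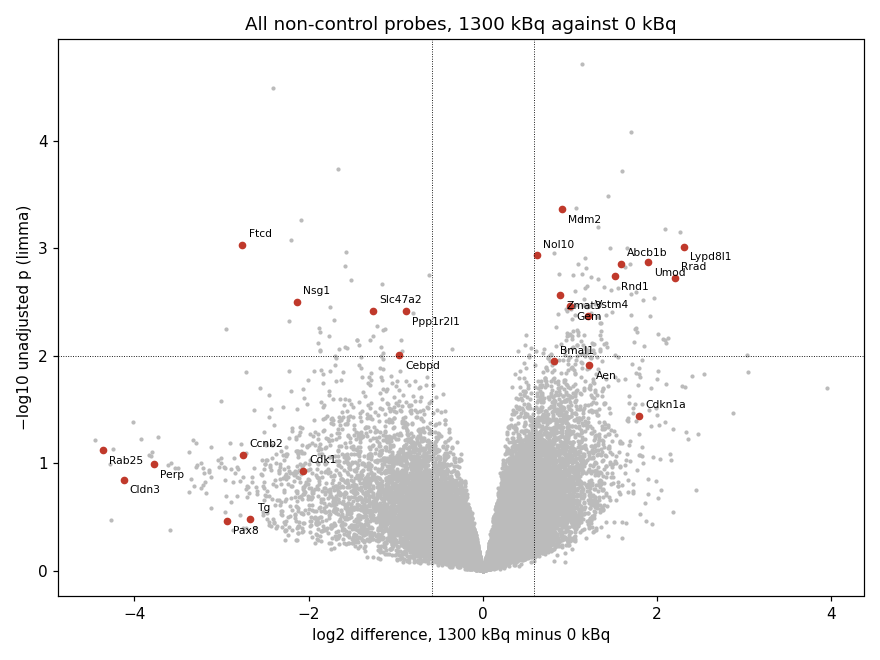
Log2 difference between 1300 kBq and 0 kBq (x axis) against the unadjusted p on a −log10 scale (y axis) for 30367 probes, with named genes in red and dotted lines at a fold change of 1.5 and a p of 0.01. The named genes with the largest negative differences, such as *Rab25* and *Cldn3*, lie below the p line, and *Mdm2* lies highest among the named genes, with a p of 0.000432.

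With all 8 rats, groups that lay apart did so more often upward than downward. All 4 irradiated rats were above all 4 controls for 321 probes (1.06%) and below them for 157 (0.517%). This tilt did not hold without irradiated rats 1 and 2, where 3.34% of all probes lay above and 3.57% below, or without control rats 2 and 3 as well, where 12.3% lay above and 18.7% below. Probes that lay apart, passed the unadjusted limits and were called well above background in every rat of at least 1 group numbered 18 higher and 3 lower. With a gene symbol these gave 10 genes higher and 3 lower, and all of them follow here. None was regulated, and the adjusted p of each was 0.966.

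*Mdm2*, which marks p53 for degradation and is itself switched on by p53, stood first among them by p. Its levels were 12.36, 12.22, 12.06 and 12.37 in the irradiated rats and 11.10, 11.44, 11.83 and 11 in the controls. The irradiated rats lay close together whether their sample held follicular RNA or not, and control rat 3 was the nearest control. The difference was 0.91 (SE 0.23), a factor of 1.88, with an unadjusted p of 0.000432. A second *Mdm2* probe differed by 0.81. Without irradiated rats 1 and 2 the difference was 0.87, and without control rat 3 as well 1.03. Within the slides that held both groups it was 0.95 and 0.78, and with the slide as a block 0.78.

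*Abcb1b* encodes a P-glycoprotein, a pump that exports drugs and other hydrophobic compounds. It was at 9.67, 9.32, 9.58 and 10.50 in the irradiated rats and 7.65, 8.67, 9.22 and 7.17 in the controls. Control rat 3 came closest to the irradiated rats, and controls 1 and 4 lay furthest away. The difference was 1.59 (SE 0.45), a factor of 3.01, at an unadjusted p of 0.0014. It was 1.86 without irradiated rats 1 and 2, and 2.21 without control rat 3 as well. A second probe of the gene, with a lower signal, differed by 0.99 (SE 0.88), and its groups overlapped. It was at 5.75, 7.78, 9.92 and 10.79 in the irradiated rats and 6.86, 8.405, 8.60 and 6.43 in the controls. There irradiated rat 1 lay below every control, rat 2 among them, and rats 3 and 4 above. With limma's array weights the adjusted p of the first probe was 0.0351, beside 0.966 in the main fit. Those weights were lowest for irradiated rats 1 and 2 (0.348 and 0.55) and control rat 3 (0.522). The other rats of the 2 groups had 0.989 to 2.76, so the nearest control counted for less. Of the other 5 measured drug transporters none passed the unadjusted limits: *Abcc1* differed by 0.08, *Abcc3* by -0.87 and *Slc47a1* by -0.26.

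*Rrad* and *Gem* encode relatives of Ras that bind calcium channels and belong to one small family of GTPases. *Rrad* was at 10.27, 9.76, 9.27 and 12.31 in the irradiated rats and 8.58, 7.76, 8.72 and 7.72 in the controls, with rat 4 well above the others. Its difference was 2.21 (SE 0.65), and 2.77 without irradiated rats 1 and 2 and control rat 3. *Gem* was at 6.82, 5.92, 5.90 and 7.21 in the irradiated rats and 5.65, 5.02, 5.65 and 5.50 in the controls, a difference of 1.005 (SE 0.32), which was 1.16 without the same 3 rats. It was well above background in 3 of the 4 controls. *Rnd1*, a GTPase that loosens the actin skeleton, was at 9.33, 7.32, 7.27 and 7.79 in the irradiated rats and 6.91, 6.26, 6.75 and 5.72 in the controls. Rat 1 was highest, and the difference was 1.52 (SE 0.44), or 1.23 without the 3 rats.

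*Lypd8l1* was at 6.06, 6.12, 6.61 and 8.83 in the irradiated rats and 4.14, 4.91, 4.79 and 4.53 in the controls, where only 2 of the 4 arrays were well above background. The difference of 2.32 (SE 0.63) was 1.68 without rat 4, 3.20 without irradiated rats 1 and 2 and control rat 3, and 0.99 after normexp correction. *Umod*, which encodes the urinary protein uromodulin, was at 7.31, 9.83, 6.86 and 6.52 in the irradiated rats and 5.72, 5.48, 6.03 and 5.70 in the controls, with rat 2 furthest up (1.90 (SE 0.54)). *Vstm4*, which encodes a membrane protein with an immunoglobulin domain, was at 11.02, 8.98, 8.92 and 8.72 in the irradiated rats and 8.24, 7.95, 8.51 and 8.10 in the controls, with rat 1 furthest up (1.21 (SE 0.39)). In both, the samples low in follicular RNA led, and without irradiated rats 1 and 2 and control rat 3 the differences were 1.06 and 0.73. *Nol10*, a nucleolar protein gene, was at 8.47, 7.91, 7.92 and 8.10 in the irradiated rats and 7.37, 7.77, 7.56 and 7.21 in the controls, a small and even difference of 0.62 (SE 0.17), and 0.56 without the 3 rats. *Zmat3*, a p53 target that encodes an RNA-binding zinc finger protein, differed by 0.89 (SE 0.27) at a dim probe (6.65, 7.04, 6.23 and 6.17 against 5.97, 5.47, 5.26 and 5.82), but by 0.18 (SE 0.49) at its brighter probe. The dim probe's difference was 0.45 without the 3 rats.

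The 3 genes on the lower side were *Ftcd*, *Nsg1* and *Ppp1r2l1*. *Ftcd*, an enzyme of histidine breakdown, was at 3.83, 4.62, 6.19 and 5.59 in the irradiated rats and 6.96, 8.77, 8.73 and 6.79 in the controls. Its difference was -2.76 (SE 0.75), and -1.62 without irradiated rats 1 and 2 and control rat 3. *Nsg1*, which sorts receptors in endosomes of neurons, was at 6.59, 7.97, 9.43 and 9.60 in the irradiated rats and 10.25, 11.67, 10.21 and 10.01 in the controls, with the 2 rats low in follicular RNA lowest and control rat 2 highest. Its difference was -2.14 (SE 0.66), and -1.13 without the same 3 rats. *Ppp1r2l1* was at 5.85, 5.71, 6.18 and 5.59 in the irradiated rats and 6.64, 6.53, 6.94 and 6.77 in the controls, a difference of -0.89 (SE 0.28), and -0.76 without the 3 rats. *Ftcd* and *Ppp1r2l1* were each well above background in 3 of the 4 irradiated rats.

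**Figure D3:**
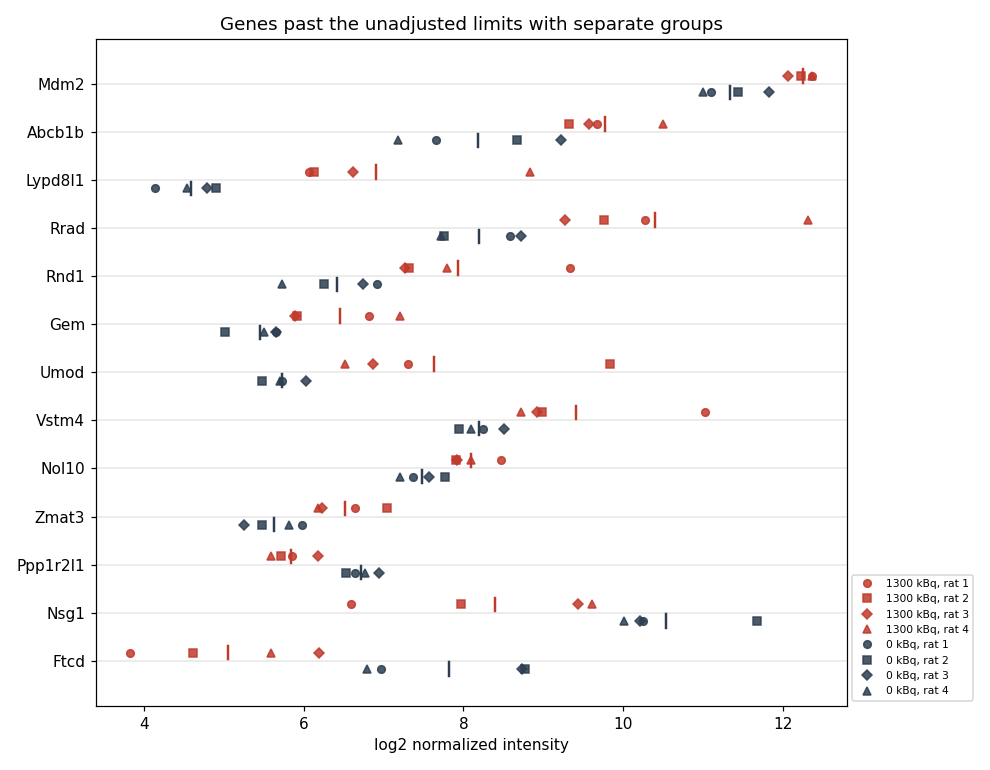
Log2 normalized intensity (x axis) of the 13 genes whose groups lay apart and passed the unadjusted limits, with the 1300 kBq rats in red, the 0 kBq rats in dark blue, 1 symbol per rat number and a bar at the mean of the 4 rats. The *Mdm2* levels of the irradiated rats sit between 12.06 and 12.37, all above the controls, and in *Rrad*, *Umod* and *Vstm4* a single irradiated rat lies far to the right.

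The p53 target genes as a list did not move one way over all 4 irradiated rats. Of 30 listed genes 25 were measured, with 14 higher and 11 lower and a median difference of 0.17, beside 0.04 over all probes, of which 54.1% were higher and 45.9% lower. Of the 25, 1 passed the unadjusted limits upward (*Mdm2*), and 2 had all irradiated rats above all controls, *Mdm2* and *Ei24*. The single rats differed: 12 of the 25 lay above every control in rat 3 and 12 in rat 4, 7 in rat 1 and 3 in rat 2. Below every control lay 0 in rat 3, 1 in rat 4, 12 in rat 1 and 9 in rat 2. Over all probes the share above every control was 35.7% in rat 1, 29.8% in rat 2, 10.1% in rat 3 and 13.4% in rat 4, and the share below every control 21.8% in rat 1, 23.5% in rat 2, 13.4% in rat 3 and 13.4% in rat 4. Without rats 1 and 2, 19 of the 25 were higher, 10 were above every control in both rats (3.34% of all probes were) and the median was 0.33. The median was -0.07 without rat 3 and -0.20 without rat 4, so its sign depended on these rats.

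*Cdkn1a*, the cell cycle inhibitor p21, was at 13.49, 14.03, 15.65 and 15.69 in the irradiated rats and 11.67, 12.31, 14.54 and 13.14 in the controls. Rats 3 and 4 lay above every control, and rats 1 and 2 lay above all controls but rat 3. The difference was 1.80 (SE 0.82), a factor of 3.48, at an unadjusted p of 0.0364. Without irradiated rats 1 and 2 it was 2.75, without control rat 3 as well 3.29, and within the 2 slides with both groups 1.85 and 2.26. A second probe, with a lower signal, differed by 0.34 (SE 0.25). It was at 13.57, 13.64, 13.31 and 12.91 in the irradiated rats and 12.90, 12.37, 13.41 and 13.38 in the controls. There rats 3 and 4 were the lowest of the irradiated rats and lay below control rats 3 and 4.

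*Aen*, a nuclease that takes part in cell death after DNA damage, was at 12.81, 12.37, 14.37 and 14.66 in the irradiated rats and 12.32, 12.55, 12.42 and 12.02 in the controls. Only rat 2 overlapped with the controls. The difference was 1.22 (SE 0.46) at an unadjusted p of 0.0123, and 2.18 without irradiated rats 1 and 2. A second *Aen* probe, with a lower signal, differed by 0.96 (SE 0.48), and there irradiated rat 2 (7.81) lay below every control. *Plk2*, a kinase that p53 switches on, was at 8.02, 8.23, 9.85 and 9.65 in the irradiated rats and 7.90, 7.49, 8.86 and 7.15 in the controls, a difference of 1.09 (SE 0.64), and 2.24 without irradiated rats 1 and 2 and control rat 3. *Gdf15*, a secreted stress signal of the TGF-beta family that was named here after its values were seen, split the irradiated group. It was at 4.83, 6.25, 14.20 and 14.83 in the irradiated rats and 9.87, 8.63, 7.11 and 10.40 in the controls, so that rats 3 and 4 were above and rats 1 and 2 below every control. *Perp*, a p53 target that is also a part of desmosomes in epithelia, was at 6.42, 7.001, 15.15 and 14.47 in the irradiated rats and 14.33, 13.58, 15.65 and 14.58 in the controls, and so followed the epithelial genes described below. The difference of *Perp*, negative with all rats, was 0.65 without irradiated rats 1 and 2 and control rat 3.

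The promoters of *Aen* and *Cdkn1a* are shown as examples that hold a p53 decamer, the short sequence that p53 binds as a pair. Both genes lay above every control in rats 3 and 4, *Cdkn1a* only at its brighter probe. The choice was made with these values known. Windows from 250 bases before to 50 bases after the start of transcription, from RefSeq on GRCr8, were searched for the p53 decamer on both strands, on which it reads alike. The decamer was present in 5 of 20 measured p53 targets with a window and in 7.98% of all 33469 windows. Besides *Aen* and *Cdkn1a* these were *Ccng1*, *Ei24* and *Gadd45a*, which are not shown. The windows of *Mdm2*, *Plk2*, *Gdf15* and *Perp* held none, so the decamer did not go with the size of the difference. A pair of decamers, each without a mismatch and with up to 13 bases between them, was present in 0 of the 20 and in 0.0598% of all windows. Pairs with a mismatch were not searched for, so the windows may hold such pairs. The decamer is in capitals, it begins at position -30 from the start of transcription in *Aen* and at -201 in *Cdkn1a*, and such a match is a description of the letters only.
Aen, chr1:142224458-142224557, plus strand: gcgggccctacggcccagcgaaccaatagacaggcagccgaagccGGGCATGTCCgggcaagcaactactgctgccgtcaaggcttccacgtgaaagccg
Cdkn1a, chr20:7150686-7150785, plus strand: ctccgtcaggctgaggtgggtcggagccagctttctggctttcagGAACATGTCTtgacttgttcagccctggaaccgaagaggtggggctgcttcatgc

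Genes of DNA damage signalling and repair were more often lower than higher. Of 21 measured genes 6 were higher and 15 lower, with a median of -0.35, while 45.9% of all probes were lower. None passed the unadjusted limits, and no gene had separate groups. The list mean was 10.46 in control rat 2, 9.35 to 9.71 in the other controls and 9.17 to 9.59 in the irradiated rats. *Chek1*, a checkpoint kinase, had the smallest p of the list, at 3.16, 3.68, 6.05 and 7.05 in the irradiated rats and 6.81, 8.46, 5.24 and 6.72 in the controls (-1.82 (SE 0.89)), well above background in 2 irradiated rats and 3 controls. Control rat 2 was highest. *Xrcc5*, a subunit of the Ku end-binding complex, was at 13.31, 13.02, 12.84 and 13.01 in the irradiated rats and 12.96, 13.05, 12.89 and 12.52 in the controls.

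Cell cycle and mitosis genes lay lower in the irradiated rats throughout the list. All 22 measured genes of 26 listed had a negative difference, the median was -1.71, and 6 had all irradiated rats below all controls (0.517% of all probes did). None passed the unadjusted limits, and the smallest p was 0.0507. *Cdk1*, the kinase that drives entry into mitosis, was at 8.76, 7.76, 9.75 and 9.14 in the irradiated rats and 9.95, 13.50, 10.14 and 10.07 in the controls, a difference of -2.06 (SE 1.28). *Ccnb2*, one of its cyclins, was at 4.82, 3.87, 6.75 and 5.68 in the irradiated rats and 6.96, 11.01, 7.31 and 6.86 in the controls, a difference of -2.75 (SE 1.54). *Ccnb2* was well above background in only 2 of the 4 irradiated rats. The differences were -0.56 and -0.69 without irradiated rats 1 and 2 and control rats 2 and 3. With all rats, the groups did not overlap in either gene, and control rat 2 was by far the highest of the 8. This was the rat with the high lymphoid markers, and its mean over the list was 11.43, beside 8.28 to 8.34 in the other controls and 7.04 to 8.11 in the irradiated rats. Without control rat 2 the median was -0.91, with 18 of 22 lower. Without irradiated rats 1 and 2 and control rats 2 and 3 it was -0.38, with 19 lower and 11 below every remaining control, beside 18.7% of all probes. The part of the lymphoid cells in this difference was not tested.

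**Figure D4:**
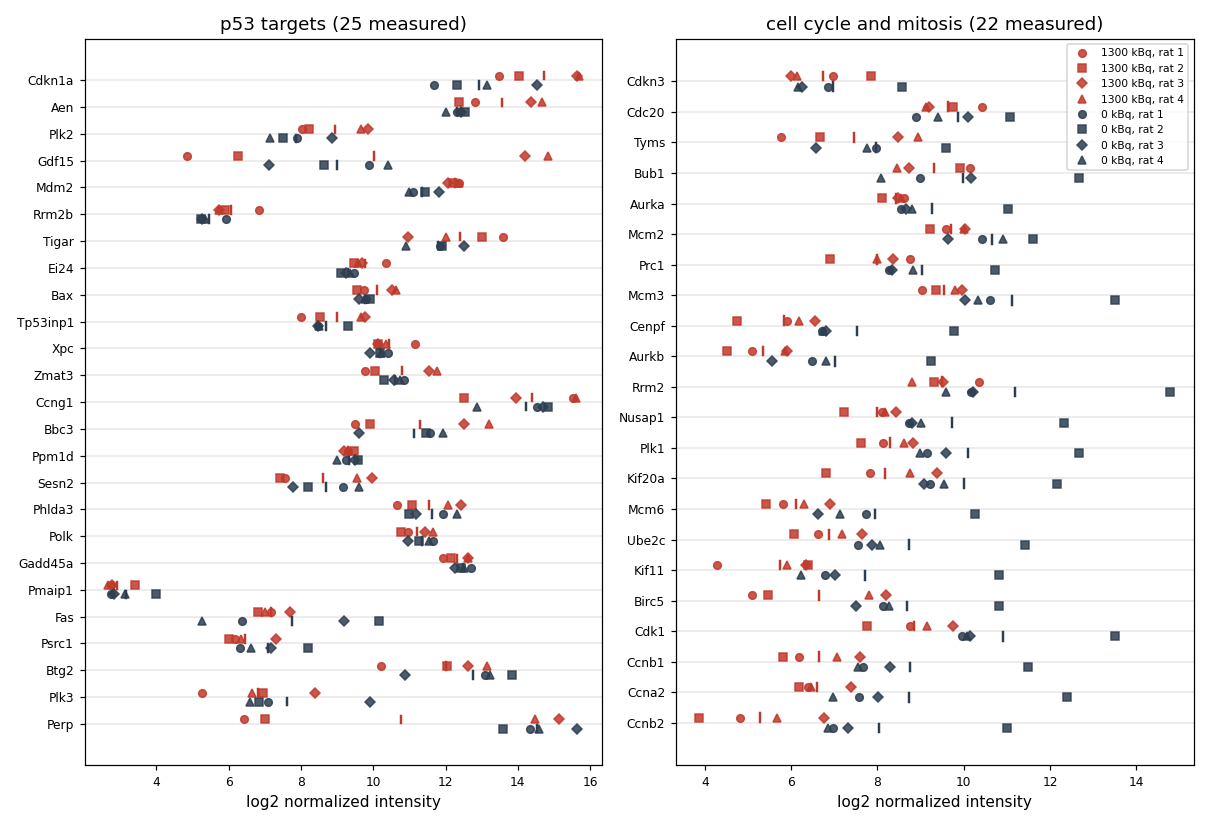
Log2 normalized intensity (x axis) of 25 measured p53 targets (left) and 22 measured cell cycle and mitosis genes (right), sorted by the difference between the groups, with the 1300 kBq rats in red, the 0 kBq rats in dark blue, 1 symbol per rat number and a bar at the mean of the 4 rats. On the left, *Gdf15* and *Perp* split the irradiated rats into 2 pairs, and on the right control rat 2 (dark blue square) lies far to the right in most genes, at 13.50 in *Cdk1*.

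Epithelial genes had some of the largest negative differences in mean level, with the spread between rats as wide as the difference. Of 25 measured genes of epithelial adhesion and keratins 24 were lower, with a median of -2.50, and none passed the unadjusted limits. Their mean level was 6.08, 6.41, 11.60 and 11.95 in the irradiated rats and 12.03, 11.27, 9.36 and 12.45 in the controls. *Cdh1*, the E-cadherin of adherens junctions, was at 4.71, 6.91, 13.32 and 13.46 in the irradiated rats and 13.42, 12.55, 11.59 and 14.04 in the controls, a difference of -3.30 (SE 1.72). *Rab25*, a GTPase of epithelial membrane traffic, was at 3.32, 3.002, 12.53 and 12.31 in the irradiated rats and 12.18, 11.35, 11.81 and 13.29 in the controls, a difference of -4.37 (SE 2.37). *Rab25* was well above background in 2 of the 4 irradiated rats and *Cdh1* in 3. In both genes rats 1 and 2 lay below all others and rats 3 and 4 lay among the controls. *Cdh1* differed by 0.06 and *Rab25* by 0.15 without irradiated rats 1 and 2 and control rat 3. Without irradiated rats 1 and 2 the median of the list was 0.38, and without control rat 3 as well 0.01, so the direction rested on these samples. The follicular cell list behaved alike, with 21 of 22 lower and a median of -1.74, which was 0.96 without irradiated rats 1 and 2 and -0.05 without control rat 3 as well.

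The 9 targets of upstream regulators that the study named were chosen on these arrays and are not independent evidence of their direction. They include tight junction and desmosome genes (*Cldn3*, *Cldn4*, *Dsp*, *Dsc2*), *Cdh1*, the peptide hormone gene *Calcb*, the defensin *Defb1*, *Cdh16* and *Igfbp2*. All 9 had a negative difference, with a median of -3.80. *Igfbp2*, which binds insulin-like growth factors, had the smallest p of them, at 4.09, 5.82, 12.90 and 12.97 in the irradiated rats and 12.99, 12.30, 12.70 and 13.88 in the controls. Its difference was -4.02 (SE 1.89), and -0.03 without irradiated rats 1 and 2. *Cldn3*, a claudin of tight junctions, was at 2.95, 6.62, 15.65 and 15.86 in the irradiated rats and 16.34, 15.25, 9.42 and 16.56 in the controls. Without rats 1 and 2 the median of the 9 was 0.38 with 3 lower, and without control rat 3 as well -0.14 with 6 lower. Within the slide that held irradiated rat 4 and control rats 3 and 4, *Cldn3* differed by 2.87, and within the slide that held irradiated rats 1 and 3 and control rat 2 by -5.95.

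Other genes that the study named across activities were *Slc47a2*, *Dbp* and *RGD1562420*, again chosen on these arrays. *Slc47a2*, an exporter of organic cations, was at 2.63, 2.60, 2.62 and 2.56 in the irradiated rats and 4.45, 5.78, 2.67 and 2.55 in the controls. It was well above background in 1 control and in no irradiated rat, so no fold is given, although its fitted p was 0.00383. *Dbp*, a clock output gene with a strong daily rhythm, was at 16.20, 15.95, 15.35 and 14.75 in the irradiated rats and 16.20, 16.68, 16.95 and 15.37 in the controls, a difference of -0.74 (SE 0.39). *RGD1562420* was at 14.24, 14.49, 14.59 and 14.41 in the irradiated rats and 13.15, 9.22, 14.31 and 14.37 in the controls. Its difference of 1.67 (SE 0.78) was 2.25 without irradiated rats 1 and 2 and control rat 3. It was 0.74 once control rat 2, the lowest, was left out as well.

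Clock genes were measured in 10 members that peak with *Dbp* and 5 that peak with *Bmal1*. The first had a median of 0.10, with 6 higher and 4 lower, and the second a median of 0.61, with 4 higher and 1 lower, and none of either passed the unadjusted limits. *Bmal1*, the core activator of the clock, was at 10.75, 10.80, 10.54 and 11.09 in the irradiated rats and 9.97, 10.62, 9.09 and 10.23 in the controls. Only irradiated rat 3 overlapped with the controls, and the difference was 0.82 (SE 0.30) at an unadjusted p of 0.0114. It was 0.54 without irradiated rats 1 and 2 and control rat 3. A second *Bmal1* probe, with a lower signal, differed by 0.55 (SE 0.36), and its irradiated rats 2 and 3 lay below control rat 1. Time of injection and time of death of the single rats were not used here.

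Among stress and signalling genes, *Cebpd*, a transcription factor of the acute phase and of glucocorticoid action, was the one member past the unadjusted limits. It was at 13.93, 13.82, 13.18 and 13.35 in the irradiated rats and 15.09, 14.18, 13.39 and 15.44 in the controls, a difference of -0.96 (SE 0.35), and -1.64 without irradiated rats 1 and 2 and control rat 3. The glucocorticoid response list had 6 of 8 higher and a median of 0.14. *Myc*, a growth-promoting transcription factor, was at 8.62, 9.45, 10.15 and 10.31 in the irradiated rats and 11.76, 10.90, 9.88 and 11.52 in the controls, a difference of -1.38 (SE 0.54) (-1.16 without the 3 rats), within an immediate early list of 8 higher and 5 lower. *Ccl2*, a chemokine that draws monocytes, was at 9.01, 10.33, 10.85 and 11.10 in the irradiated rats and 9.30, 9.46, 10 and 8.44 in the controls, a difference of 1.02 (SE 0.49), and 1.91 without the 3 rats. The metallothionein gene *Mt1* was at 10.51, 12.39, 14.93 and 15.12 in the irradiated rats and 16.45, 15.53, 12.62 and 16.63 in the controls. It was lowest in the samples with little follicular RNA, and its difference of -2.07 (SE 1.15) was -1.18 without them. The redox list as a whole had 5 higher and 12 lower and a median of -0.13.

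Lists with medians near that of all probes held most of the other genes. Interferon and antigen processing genes had a median of 0.07 (11 of 18 higher), and inflammatory mediators of -0.26 (5 of 15 higher). For heat shock and cold-inducible genes it was -0.02, and for chaperones of the endoplasmic reticulum -0.10. Cholesterol synthesis had -0.05, oxidative phosphorylation 0.03 and fast muscle 0.06. *Hsp90b1*, an endoplasmic reticulum chaperone, nevertheless ranged widely, at 12.53, 12.66, 15.83 and 16.41 in the irradiated rats and 15.65, 14.53, 12.78 and 16.25 in the controls, with the 3 samples low in follicular RNA lowest. *Cox4i1*, a subunit of cytochrome c oxidase, was at 17.71, 17.96, 17.57 and 17.78 in the irradiated rats and 17.99, 17.80, 18.21 and 17.84 in the controls.

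Among markers of cell types, the medians were -1.64 for C cells, -1.27 for slow muscle, -1.59 for lymphoid cells, -0.73 for squamous epithelium, -0.51 for cartilage and -0.30 for adipose tissue. They were 0.95 for parathyroid, 0.38 for airway epithelium and 0.11 for erythroid cells, and between -0.10 and 0.02 for endothelium, fibroblasts and myeloid cells. No marker of any of these lists passed the unadjusted limits, and the sign of several medians turned on 1 sample. The slow muscle median was 0.08 without irradiated rat 1, and the lymphoid median 0.04 without control rat 2. Without control rat 3 the medians were 0.69 for squamous epithelium, 0.69 for cartilage and -0.68 for parathyroid. For C cells the median was 0.08 without irradiated rats 1 and 2. *Calca*, the calcitonin gene that C cells express, was at 6.25, 8.85, 15.59 and 18.67 in the irradiated rats and 18.56, 17.93, 8.69 and 18.56 in the controls. *Pdgfra*, a growth factor receptor of fibroblasts, was at 10.90, 11.80, 12.10 and 11.58 in the irradiated rats and 11.20, 10.81, 12.40 and 10.55 in the controls.

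The next lower and next higher activities, 760 and 4700 kBq, were set beside 1300 kBq, and all 3 were compared with the same 4 controls. *Mdm2* differed from controls by 0.33 at 760 kBq and 1.37 at 4700 kBq, beside 0.91 at 1300 kBq, and *Abcb1b* by 1.31 at 760 kBq and 2.11 at 4700 kBq, beside 1.59. *Cdkn1a* differed by 1.79 at 760 kBq and 2.60 at 4700 kBq, and *Aen* by 1.37 at 760 kBq and 1.999 at 4700 kBq. *Gdf15* was at a difference of 1.85 at 760 kBq and 4.07 at 4700 kBq, beside 1.02. For *Rrad* the values were 0.12 at 760 kBq and -0.22 at 4700 kBq, for *Lypd8l1* 0.27 at 760 kBq and 0.49 at 4700 kBq, and for *Umod* 0.30 at 760 kBq and 0.58 at 4700 kBq, beside 2.21, 2.32 and 1.90 at 1300 kBq. *Rrad*, *Lypd8l1* and *Umod* were picked for high values at 1300 kBq, so a larger difference there is partly given by that choice. The cell cycle list had a median of 0.32 at 760 kBq and -1.66 at 4700 kBq, the p53 targets of 0.30 at 760 kBq and 0.67 at 4700 kBq, and the study's regulator targets of 0.37 at 760 kBq and -0.88 at 4700 kBq.

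Direct contrasts gave 0 regulated probes against 760 kBq and 0 against 4700 kBq. They do not use the controls, but genes picked for high values at 1300 kBq, such as *Rrad* and *Mdm2*, enter with those same values. The unadjusted p values of such genes are therefore no independent support. At the unadjusted limits 187 probes (0.616%) differed from 760 kBq, 95 higher (0.313%) and 92 lower (0.303%), and 73 (0.24%) differed from 4700 kBq, 40 higher (0.132%) and 33 lower (0.109%). *Rrad* was higher by 2.09 than at 760 kBq (unadjusted p 0.00301, adjusted p 0.79) and by 2.43 than at 4700 kBq (unadjusted p 0.000759, adjusted p 1). *Mdm2* was higher by 0.58 than at 760 kBq (adjusted p 0.79) and differed by -0.46 from 4700 kBq (adjusted p 1). *Bmal1* was higher by 1.11 than at 4700 kBq (unadjusted p 0.00103, adjusted p 1). One probe reached an adjusted p under 0.05 against 760 kBq (0.00329%), that of *Csn3*, the milk protein kappa-casein, named here after its values were seen. It was at 5.60, 6.24, 5.09 and 6.78 in the 760 kBq rats, and at 2.81, 2.71, 2.82 and 2.68 in the 1300 kBq rats, below background in all 4. It was at least 2.75-fold lower at 1300 kBq than at 760 kBq (adjusted p 0.0485), and it was below background in the controls too.

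**Figure D5:**
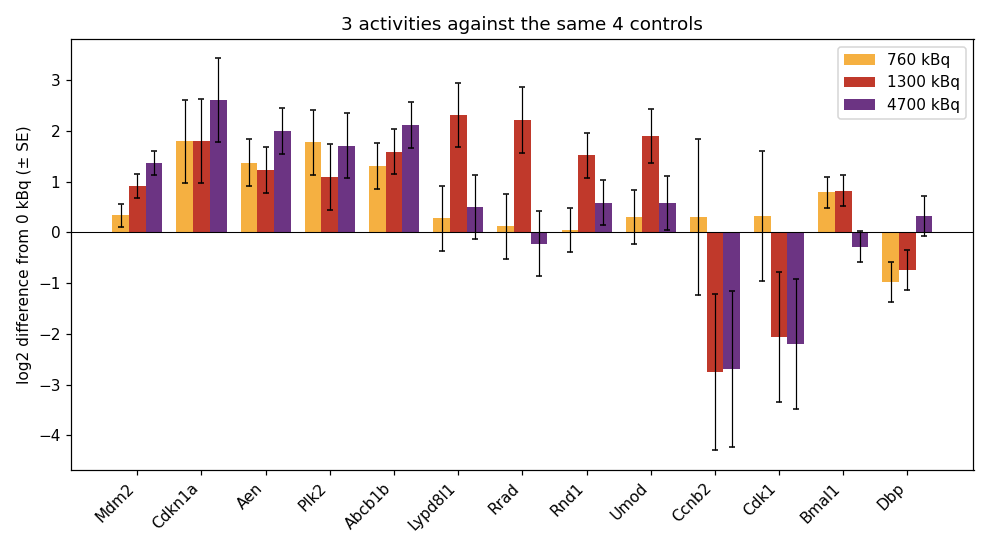
Log2 difference from the same 4 controls (y axis) for 13 genes at 760 kBq (orange), 1300 kBq (red) and 4700 kBq (purple), 4 rats each, with bars for the difference and lines for its standard error in the fit over 36 arrays. *Mdm2* stands at 0.33, 0.91 and 1.37 in order of activity, and *Rrad* at 2.21 at 1300 kBq beside 0.12 and -0.22.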

How the data were processed

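Thyroid RNA of single rats, extracted with the RNeasy Lipid Tissue Mini Kit, had been hybridized to 1-colour Agilent rat arrays. The deposited matrix holds linear intensities that the authors had quantile normalized between 36 arrays, with 1 value for each of 30367 non-control probes. The labels name Partek as a processing tool. The deposited scanner output holds spot intensities and background calls. Matrix values were put on a log2 scale and fitted with limma 3.58.1 in R 4.3.3, with 1 mean per group over 36 arrays (lmFit, eBayes, Benjamini-Hochberg adjustment over all probes). A probe was well above background on an array where at least 50% of its spots were. RefSeq accessions gave 1 gene symbol to 17998 probes and none to 12369, and a gene with several probes is represented by the brightest unless another probe met the rule for separate groups.

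Named genes are *Slc47a2*, *Dbp*, *RGD1562420*, *Cdkn1a* and 9 regulator targets from the study's results (not all genes it names), up to 4 members per list with the largest difference, members past the unadjusted limits, and the 12 higher and 12 lower genes with the largest difference among those with separate groups. The 135 named genes and 32 lists were chosen with earlier results of these data known, and 2 of these genes are not reported here. *Hhex* was added after its values were seen. On simulated data with 50 changed probes at each size, 1 was called at a change of 1 SD, 2 at 2 SD, 32 at 4 SD and 50 at 6 SD, with 0 false calls. The simulation drew every probe independently, without the differences in tissue content that real samples share across probes, so its rates may not hold for these arrays. Precision is limited by the number of arrays, and the median SD between rats was 0.52 at 1300 kBq and 0.46 in the controls. Figures and tables were made with pandas 2.3.3, numpy 2.4.6 and matplotlib 3.10.9 under Python 3.11.15.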

Additional observations from a re-analysis of the deposited data

Results flagged for a closer look

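Among 133 named genes and 32 list means, 330 sets of 4 rats were examined for a single rat far from the other 3 by Dixon's ratio. Such a rat was found in 30 sets (9.1%). Chance gives about 5% for independent sets, but these sets share rats and hold genes picked for large differences, so that share is no reference here. Control rat 2 accounted for 10 of the 30 sets, control rat 3 for 8, and other rats for 12.

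Control rat 2 was far above the other controls in *Ccl3* at 10.52, *Ccnb2* at 11.01, *Cd3g* at 16.47, *Cd74* at 15.19, *Cdk1* at 13.50, *Fancd2* at 7.89, *Nsg1* at 11.67 and *Thy1* at 10.96. Its list means were 12.03 for lymphoid cells and 11.43 for cell cycle and mitosis. Control rat 3 was far below the others in *Calca* at 8.69, *Casr* at 6.91, *Mt2A* at 12.53 and *Tg* at 14.48, and in the C cell mean, at 5.99. It was far above them in *Fbln1* at 10.93 and *Lypd3* at 15.52, and in the squamous epithelium mean, at 13.29.

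Control rat 4 was far below the others in *Cacna1s* at 15.56, *Myh6* at 13.98 and *Myl2* at 11.81, and in the fast muscle mean, at 17.31. Control rat 1 was far above the others in *Nfil3* at 9.55.

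Among the 1300 kBq rats, rat 1 was far below the others in *Dgat2* at 12.12 and *Fbln1* at 6.62, and far above them in *Egr3* at 6.51 and *Vstm4* at 11.02. Rat 2 was far above the others in *Itgam* at 8.70 and *Slc47a1* at 8.45. Rat 4 was far below them in *Tppp3* at 13.56.

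*Csn3* differed between 1300 and 760 kBq by -3.17 in the direct contrast of limma (adjusted p 0.0485), with 4 of 4 rats at 760 kBq well above background and 0 of 4 at 1300 kBq.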

How the results depend on the processing

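The count of 0 regulated probes at 1300 kBq kept its value with the scanner's processed signal, normexp correction, a filter on dim probes, a fit of the 2 groups alone, slide or scan day as a block, trend and robust options, the follicular level as a covariate, a 2-fold limit and an adjusted p under 0.05, and was 1 with array weights. Leaving out 1 rat at a time gave 0 to 1 regulated probes, 77 to 306 higher and 19 to 82 lower probes at the unadjusted limits (123 and 40 with all rats), with 306 higher without irradiated rat 3, 193 without rat 4, and 1 regulated without control rat 1. With normexp these were 37 higher and 10 lower, with dim probes filtered out 31 and 6, and with array weights 224 and 182. With the scanner's processed signal, scaled to the 75th percentile, they were 183 and 5, and the median over all probes moved from 0.04 to 0.22, so that the split between higher and lower depends on the scaling. Without irradiated rats 1 and 2, 1 probe was regulated and 93 were higher and 12 lower. Without control rat 3 as well these were 1, 85 and 23, and without control rat 2 in addition 1, 58 and 66. The last settings and the covariate were chosen after seeing the data. The cause of these changes was not tested, beyond the fewer probes or rats that some settings hold.

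Rats of the 2 groups share only a number. Their deviations from the group means correlated by -0.176, -0.0128, -0.151 and 0.464 for rats 1 to 4, and with the rat number as a replicate block 0 probes were regulated, 118 were higher and 38 lower at the unadjusted limits. Counting each list or gene once per alternative, 681 recomputed list medians moved by less than the spread between rats and 23 by more, and 2775 recomputed gene differences by less and 85 by more. The spread between rats was wide in genes that differed from sample to sample, so even a change of sign could count as less. *Calca* went from -3.59 to 1.19 without irradiated rats 1 and 2 and was counted so. These counts are therefore no measure of stability. Over the settings not added after seeing the data, the difference of *Mdm2* ran from 0.78 to 1.07, of *Abcb1b* from 1.26 to 2.11, of *Rrad* from 1.57 to 2.60, of *Rnd1* from 1.03 to 1.74, of *Umod* from 1.17 to 2.27, of *Vstm4* from 0.68 to 1.44, of *Lypd8l1* from 0.99 to 3.13, of *Ftcd* from -3.14 to -1.30 and of *Nsg1* from -2.54 to -1.34. *Gem* (0.49 to 1.19), *Nol10* (0.50 to 0.72), *Zmat3* (0.42 to 1.01) and *Ppp1r2l1* (-1.002 to -0.42) fell short of a factor of 1.5 in at least 1 of them. The number of arrays and the spread between samples limit the comparison. Changes of 1 and 2 SD were mostly missed in the simulation, which did not hold the shared differences between samples.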
